A study of Danio rerio with 8 samples.

Results

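The 8 loci described here are zebrafish transcripts that hold microRNA precursors, grouped under the name of muscle, neural and blood microRNAs. They were taken by locus identifier from the catalogue of long non-coding RNA (lncRNA) models deposited with a ribosome profiling study. They are the loci with RefSeq precursor records of mir-1, mir-133a, mir-9, mir-219, mir-144, mir-451a, mir-148 and mir-199. The 8 are part of 1014 zebrafish loci, and of 1181 loci when the 167 mouse loci deposited beside them are counted. They hold 33 exon records in 19 transcripts, of which 9 are host models with names that begin in Zv9_ and 10 are precursors. No linc- model, the other large source of the catalogue, is present at any of the 8 loci. All 11 loci of the catalogue found to hold microRNA precursors are named in the descriptions here, and the other 3 serve only as a comparison. Precursors were recognised by their names in RefSeq's gene table. It named 26 of the catalogue's 27 RefSeq transcripts, so a further host could have been missed.

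The study sequenced ribosome footprints of wild-type TL/AB zebrafish embryos, 400 to 600 per stage, kept at 28.5 °C. Its 8 stages, with 1 library each, began with 2-4 cell embryos and 256 cell embryos. Those labelled 1K cell and Dome came next, then Shield and Bud, and last 28 hpf (hours after fertilization) and 5 dpf (days after fertilization). No genetic change or drug treatment of the living embryos is given in the labels. Footprint values were not analysed here, so the depth of the libraries is unknown and no difference between stages could be described. What was measured below is the position of deposited exons and precursors on the Zv9 build, from which lengths and distances follow by counting. A precursor here is the hairpin record as RefSeq gives it, whose ends need not be the sites at which enzymes cut it. The ends of a model are those deposited, and where the RNA itself starts and stops in embryos was not measured here. Each model is a single deposited annotation without replicates, and no test was run.

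A microRNA is cut from a longer primary transcript. In the nucleus the Drosha enzyme releases a hairpin, the precursor, and in the cytoplasm Dicer usually trims it to the mature microRNA that pairs with target messenger RNAs. Primary transcripts can be non-coding RNAs that carry the hairpin in an intron or in an exon, and cutting a hairpin out of an exon breaks the RNA that holds it. The mir-1 and mir-133 families are known from skeletal and heart muscle and are often encoded side by side. The mir-9 family is known from neural progenitors, mir-219 from oligodendrocytes, and mir-144 and mir-451 from maturing red blood cells. The mir-148 family is known in mammals from liver and immune cells, and mir-199 from mesenchyme, so the group's name describes these 2 members less well. The catalogue holds no expression value, and the tissue of each microRNA is background, not a result.

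A Zv9_ exon covered 9 of the 10 precursors in full and 1, mir144, in part. Groups rebuilt from exon bases shared on the same strand were identical to the deposited loci for 1014 of 1014 loci. With such groups a precursor that touched no exon would stand apart from its host, so the count describes how the catalogue is grouped. Within that limit the exon could be any exon. It was the last exon for 8 of 10 precursors in 6 of 8 hosts, an internal exon for dre-mir-9-1 and the first exon for mir9-3. Last exons held 77.9% of the spliced bases of the 8 host models, so the share of precursors in last exons, 80%, lay close to the share of sequence found there. In the other 598 loci with Zv9_ models, last exons held 64.3% of the spliced bases.

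**Figure D1:**
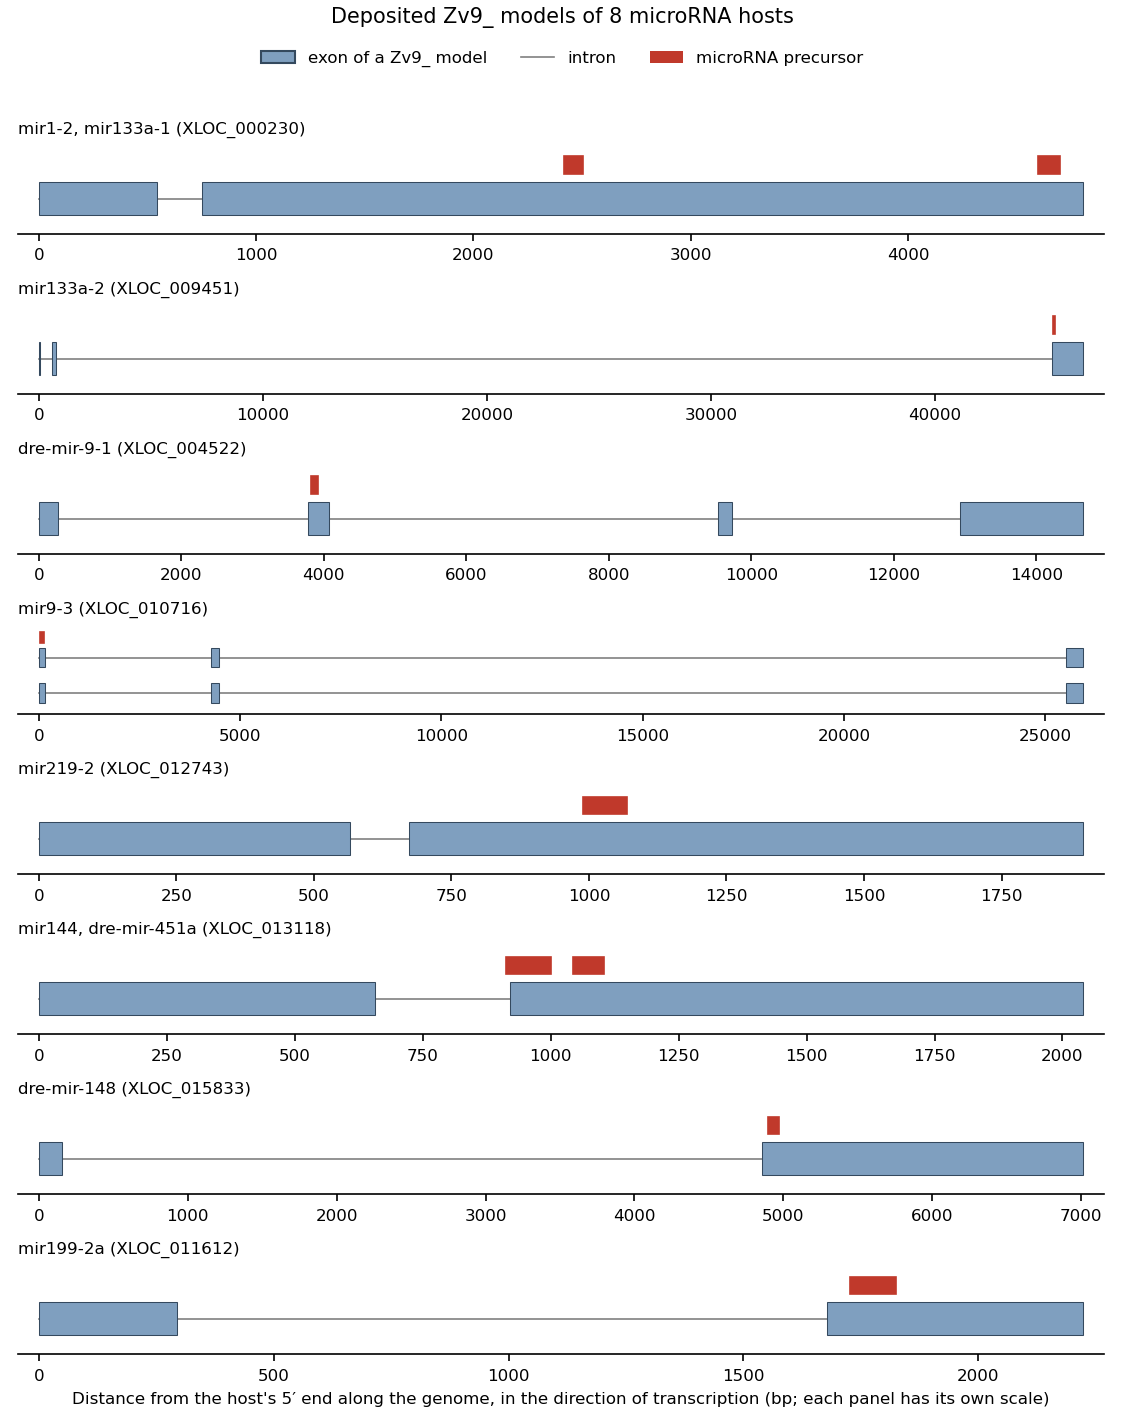
Exons (blue boxes), introns (grey lines) and precursors (red boxes above the models) of the 8 hosts, drawn to scale in the direction of transcription, with the distance from the host's 5′ end in bp on each panel's own axis. The precursors sit over the last exon in 6 hosts, over exon 2 of 4 in the dre-mir-9-1 host and over exon 1 of 3 in the mir9-3 host, whose pair of models differ by 3 nt at the start of exon 2.

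The muscle precursors mir1-2 and mir133a-1 lay in the same locus, XLOC_000230, on the unplaced scaffold Zv9_scaffold3540, from 264000 to 268804 on the plus strand. Its single Zv9_ model, Zv9_00057801, had 2 exons of 545 and 4055 nt separated by an intron of 205 bp. Both precursors lay in exon 2, which made up 88.2% of the 4600 nt of spliced sequence. The mir1-2 precursor of 87 nt ran from 266415 to 266501, with 1665 nt between the splice acceptor, the junction at which exon 2 begins, and the precursor. It left 2303 nt to the 3′ end and sat at 49.0% of the spliced length, counted to its midpoint. The mir133a-1 precursor of 99 nt ran from 268599 to 268697, 3849 nt after the acceptor and 107 nt before the 3′ end, at 96.6% of the spliced length. The 2 precursors were 2097 nt apart. Thus mir1-2 was central in its host, and mir133a-1 was the precursor nearest to a 3′ end among all 10.

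The second copy of mir133a, mir133a-2, lay in XLOC_009451 on the plus strand of chromosome 23, between 7129938 and 7176551. Zv9_00051620, its only Zv9_ model, had 3 exons of 63, 187 and 1381 nt, with introns of 502 and 44481 bp. The precursor of 84 nt, from 7175214 to 7175297, was in exon 3, 43 nt after the acceptor and 1254 nt before the 3′ end. On the genome it lay 45276 bp from the 5′ end of the host, the largest such distance of the 10, yet only 293 nt of spliced sequence preceded it. The exons before it are therefore small and far away, and the precursor sits at the start of the large final exon. The hosts of the mir133a copies thus differed in layout: mir133a-1 lay near the 3′ end of a compact 2-exon model, and mir133a-2 lay just behind a long intron.

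The neural microRNA dre-mir-9-1 lay in XLOC_004522 on the plus strand of chromosome 16, between 31440637 and 31455290. Its model Zv9_00037065 had the most exons of the 8 hosts, 4, of 271, 297, 200 and 1728 nt. The introns measured 3509, 5453 and 3196 bp. The precursor of 87 nt, from 31444462 to 31444548, was in exon 2, with 45 nt to the acceptor upstream and 165 nt to the splice donor, the junction at which the exon ends. Exon 2 made up 11.9% of the spliced length of 2496 nt, the smallest share of a host taken by a hosting exon. It is the only precursor of the 10 with a splice site on both sides of its exon. A spliced sequence of 316 nt preceded the precursor and 2093 nt followed it.

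The related precursor mir9-3 lay in XLOC_010716 on the minus strand of chromosome 25, between 8733461 and 8759394. This was the only host with more than 1 Zv9_ model. Zv9_00056652 and Zv9_00056653 had 3 exons each, with a first exon of 161 nt and a last exon of 425 nt in both. They differed only in exon 2, which was 187 nt in Zv9_00056652 and 184 nt in Zv9_00056653, because its acceptors lie 3 nt apart. The precursor of 101 nt, from 8759267 to 8759367, was in the shared first exon in both models, so the choice of isoform left its exon unchanged. It began 27 nt after the 5′ end of the host and ended 33 nt before the donor, and it filled 62.7% of the exon. The remaining sequence to the 3′ end was 645 nt in Zv9_00056652 and 642 nt in Zv9_00056653 after splicing, but 25806 bp on the genome. In the deposited table mir9-3 was the only precursor given the same transcription start identifier as its host, and the other 9 did not share that of their host. The mir9 copies were alike in lying near the 5′ end of the spliced RNA, at 14.4% for dre-mir-9-1 and 10.0% for mir9-3, and differed in the exon that holds them. Such a position was not particular to them, since dre-mir-148 lay at 10.2% and mir133a-2 at 20.5%. The remaining precursors of the 8 hosts lay at 39.2% or beyond.

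The oligodendrocyte microRNA mir219-2 lay in XLOC_012743 on the plus strand of chromosome 5, between 67609743 and 67611640. Its model Zv9_00011860 had 2 exons of 566 and 1226 nt around an intron of 106 bp, the shortest of the hosts. The precursor of 80 nt, from 67610733 to 67610812, was in exon 2, 318 nt after the acceptor and 828 nt before the 3′ end. It lay at 51.6% of the spliced length, near the middle like mir1-2.

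The red cell microRNAs mir144 and dre-mir-451a lay together in XLOC_013118 on the minus strand of chromosome 5, between 43889617 and 43891656. Zv9_00013210 had 2 exons of 657 and 1119 nt and an intron of 264 bp. In the order of transcription mir144 came first, from 43890744 down to 43890656, and dre-mir-451a followed from 43890612 down to 43890553, with 43 nt between them. The record of mir144 crosses the acceptor of exon 2. Of its 89 nt, the first 9 fall in the intron and 80, or 89.9%, in the exon, so the spliced model does not hold the whole precursor record. The table notes a containing model for the other 9 precursors and none for mir144. The dre-mir-451a precursor, the shortest of the 10 at 60 nt, lay wholly in exon 2, 123 nt after the acceptor and 936 nt before the 3′ end. The mir-451 hairpin is known for being matured by an Argonaute protein in place of Dicer.

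The remaining 2 hosts also placed their precursor in the last of 2 exons. The dre-mir-148 precursor of 79 nt lay in XLOC_015833 on the minus strand of chromosome 9 and occupied 1634030 to 1634108, in a locus that runs from 1631992 to 1639003. Its model Zv9_00022842 had exons of 157 and 2156 nt and an intron of 4699 bp, and the precursor was 39 nt after the acceptor and 2038 nt before the 3′ end. The hosting exon made up 93.2% of the 2313 nt, the largest share of the 8 hosts. The mir199-2a precursor of 98 nt lay in XLOC_011612 on the minus strand of chromosome 3 and occupied 48383357 to 48383454, in a locus that runs from 48382958 to 48385180. Its model Zv9_00007852 had exons of 294 and 544 nt and an intron of 1385 bp, with the precursor 47 nt after the acceptor and 399 nt before the 3′ end. Because its last exon is short, mir199-2a lay at 46.5% of the spliced length although it began within a few bases of the same distance from the acceptor as mir133a-2 did.

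**Figure D2:**
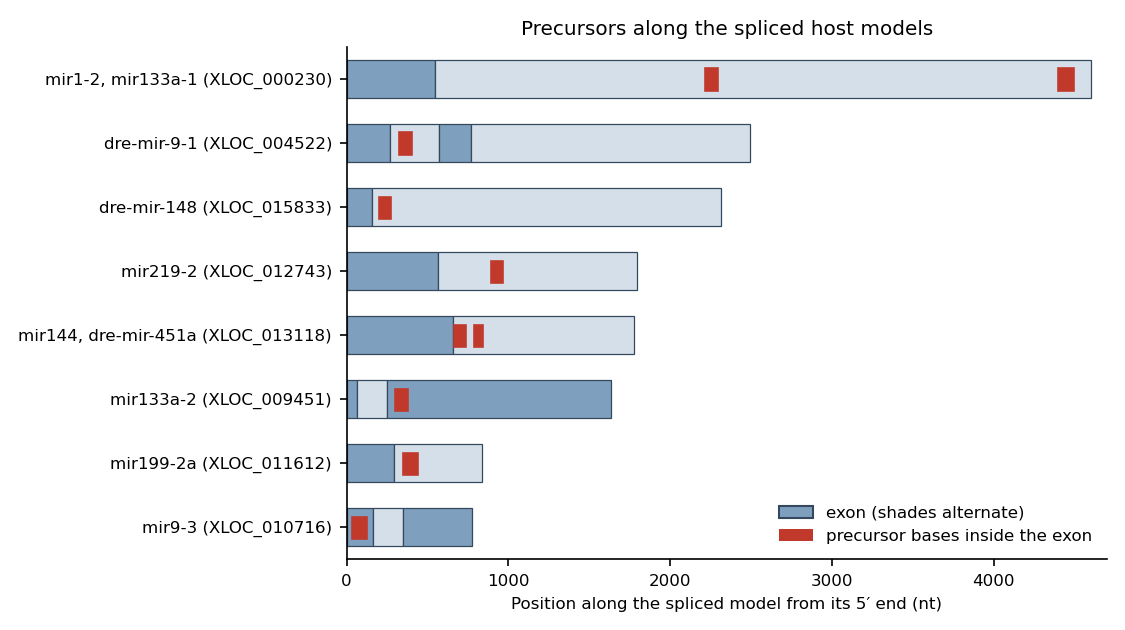
Spliced host models, longest at the top, with exons in alternating shades and the bases of each precursor that fall inside the exon in red. The horizontal axis is the position from the 5′ end of the spliced RNA in nt, and 8 of 10 precursors lie before the midpoint of their model, with mir219-2 at 51.6% and mir133a-1 at 96.6% beyond it.

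Distances to splice sites were short for part of the precursors. In 4 hosts (mir133a-2, dre-mir-9-1, dre-mir-148 and mir199-2a) the precursor began 39 to 47 nt after an acceptor, in hosts whose spliced lengths ran from 838 to 2496 nt. These 4 microRNAs belong to different families, and their hosts lie on chromosomes 23, 16, 9 and 3. The introns before these acceptors ranged widely, at 44481, 3509, 4699 and 1385 bp. Bases no more than 50 nt after the first base of a non-first exon made up 3.77% of the spliced sequence of the 8 hosts. They made up 7.45% in the other 598 loci with Zv9_ models. Of the 10 precursors, 40% began in this window. Of the 11 precursors in the catalogue's other 3 microRNA hosts, 1 (9.09%) began in that window, which makes 5 of 21 (23.8%) over all 11 hosts. The window was chosen after the distances had been seen, and the 10 precursors are few, so the shares are given as a description. The other distances to the acceptor were 123 nt for dre-mir-451a, 318 nt for mir219-2, 1665 nt for mir1-2 and 3849 nt for mir133a-1, while mir144 crossed its acceptor and mir9-3 had none. Over the 10 precursors the median distance to the nearest splice site was 46 nt, with a range of 9 to 3849 nt. Here the 9 nt of mir144 count the bases that lie beyond the site.

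Donors were rare beside precursors, since a last exon has none: 2 of 10 precursors, dre-mir-9-1 and mir9-3, had a donor downstream. Within their own exon, 9 of 10 precursors were centred in the upstream part, before the exon's midpoint, with mir133a-1 as the exception at 96.1% of exon 2. Along the whole spliced model, 8 of 10 were nearer to the 5′ end than to the 3′ end, with mir219-2 and mir133a-1 as the exceptions. The 8 include mir1-2, which was almost central (2210 nt before it and 2303 nt after), and both precursors of the mir144 host. The median position was 42.4% of the spliced length for the 10 precursors. It was 43.4% for the 21 precursors of all 11 hosts, so the position was not particular to the 8 hosts. The spliced sequence before the precursor had a median of 499 nt (range 27 to 4394), and the sequence after it a median of 987.5 nt (107 to 2303).

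**Figure D3:**
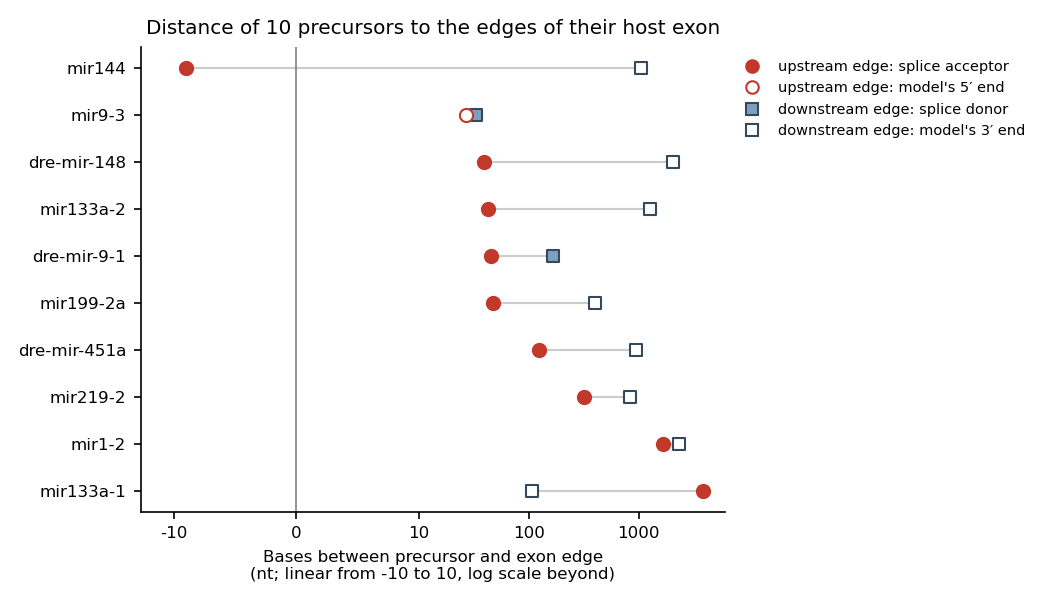
Bases between each of 10 precursors and the upstream edge (circles) and downstream edge (squares) of its exon, on an axis that is linear within 10 nt of 0 and logarithmic beyond. Filled symbols are splice sites and open symbols are ends of the model. The circles of dre-mir-148, mir133a-2, dre-mir-9-1 and mir199-2a fall together between 39 and 47 nt, and that of mir144 lies at -9 nt because the record extends into the intron.

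Among the loci that carry Zv9_ models, 606 in all, the hosts had long spliced models. Their median was 1784 nt (range 773 to 4600, n = 8 loci), against 872 nt (quartiles 406 to 1524) for the other 598 loci, and 6 of 8 hosts were above the median of the others. The mir1-2 and mir133a-1 host was exceeded by 9 of the 598 others, and the mir9-3 and mir199-2a hosts lay below the median of the others, at 773 and 838 nt. Last exons differed in the same direction, with a median of 1303.5 nt in the hosts against 468.5 nt in the others. The genomic span did not follow, with a median of 5908.5 bp in the hosts against 7415.5 bp in the others. Exons covered a median of 35.3% of the span in the hosts against 10.6% in the others. By this share the mir1-2, mir219-2 and mir144 hosts were mostly exon, at 95.7%, 94.4% and 87.1%, although each has an intron. The dre-mir-148, mir199-2a and dre-mir-9-1 hosts were at 33.0%, 37.7% and 17.0%. The mir133a-2 and mir9-3 hosts were mostly intron, at 3.50% and 2.98%. The hosts were like the others in exon number, with 2 exons in 5 of 8 hosts (62.5%) against 352 of 598 others (58.9%). A single Zv9_ model described 7 of 8 hosts (87.5%) and 446 of the others (74.6%), and the last exon was at least as long as the first in 8 of 8 hosts and in 425 of the others (71.1%). These differences were not tested, because the hosts were chosen with results of the catalogue known. A locus could be a host only if its exons shared bases with a precursor, so the choice itself can favour longer exons. Long models were shared with the other 3 microRNA hosts, which are counted among the 598. Their spliced lengths were 1387, 1708 and 3677 nt, in XLOC_000292, XLOC_015999 and XLOC_016116. The last exons of these 3 loci, at 1180, 490 and 3508 nt, were also above the median of the others.

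**Figure D4:**
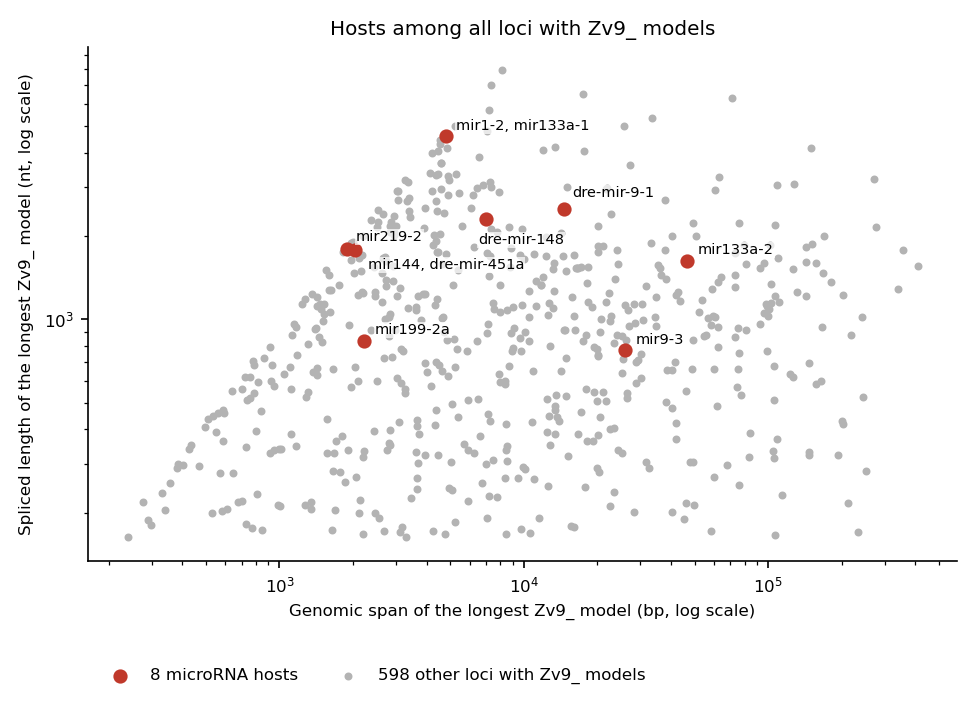
Spliced length (nt) against genomic span (bp) of the longest Zv9_ model at each locus, both on log scales, with the 8 hosts in red and the 598 other loci in grey. The mir1-2, mir219-2 and mir144 hosts lie along the upper left border, where span is nearly all exon, and 6 of 8 hosts lie above 872 nt, the median of the others.

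The other 3 hosts in the catalogue carry clusters of the mir-17, mir-18 and mir-15 groups and were read in the same way. All 11 of their precursors lay in last exons. The most upstream precursor began 37 nt after the acceptor in XLOC_000292 (mir17a-1), 66 nt in XLOC_016116 (mir17a-2) and 104 nt in XLOC_015999 (mir15a-2). Neighbouring precursors there were 23 to 92 nt apart, a range that takes in the 43 nt between mir144 and dre-mir-451a, except for 456 nt between mir18b and mir92a-2. The 2097 nt between mir1-2 and mir133a-1 exceeded all of these.

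No other locus of the catalogue lay within 10 kb of any of the 8 hosts. The nearest were XLOC_012618, 49780 bp from the mir144 host, and XLOC_015538, 63367 bp from the dre-mir-148 host, both on the opposite strand. The mir1-2 host was alone on its scaffold. For coding genes, which the catalogue leaves out, names were read from RefSeq's gene table for the GRCz12tu assembly, which gives no strand. There mir1-2 and mir133a-1 lay within mib1, which encodes a ubiquitin ligase of Notch signalling, beside gata6. The dre-mir-148 gene lay within hnrnpa3, which encodes an RNA-binding protein, and mir199-2a within dnm2a, which encodes a dynamin. The coding neighbours of dre-mir-9-1, which lay within the interval of LOC137487913, were mef2d and rhbg, and those of mir9-3 were polg and rhcgb. The red cell pair lay between eral1 and tbx16l, within the interval of the predicted coding gene LOC137495624. A further interval, LOC137495623, also held this pair, and LOC141377729 also held mir1-2 and mir133a-1. The coding neighbours of mir133a-2 were slco4a1 and si:dkeyp-73a2.2. On the side of si:dkeyp-73a2.2, the next microRNA was mir1-1, with the lncRNA LOC137489084 between them.

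The microRNA families were represented to different degrees. In a list of 12 families (mir-1, mir-206, mir-133, mir-9, mir-124, mir-219, mir-144, mir-451, mir-148, mir-152, mir-199 and mir-214), the RefSeq table named 32 genes. Of these, 10 (31.2%) had a record in the catalogue, all of them in the 8 hosts. The hosts were chosen by precursors of 8 of the 12 families, so a record for each of those was fixed in advance. The share therefore describes this list only. The records covered 1 of 2 genes of mir-1, 2 of 4 of mir-133, 2 of 7 of mir-9, 1 of 3 of mir-219 and 1 of 3 of mir-199. The single genes of mir-144, mir-451 and mir-148 were all present. The muscle family mir-206, the neuronal family mir-124, and mir-152 and mir-214 had a record for 0 of 2, 0 of 6, 0 of 1 and 0 of 1 genes. Whether a gene without a record was placed on Zv9 in the RefSeq set the authors used was not tested, and a missing record carries no statement on expression.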

How the data were processed

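Ribosome footprint libraries of whole embryos, 1 per stage at 8 stages, belong to the series. No column of values per library was used. The values used are exon coordinates on Zv9, first and last base counted from 1, in an annotation table the authors deposited. Per the authors' deposited description, it combines lncRNA models of 2 earlier studies with RefSeq transcripts of the same loci. Bowtie2, TopHat2 and bedtools are named in the submitters' processing notes, without versions, and no source used here names the tool behind the loci, which were rebuilt from shared exon bases as a check.

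Exon numbers ran in genomic order for 100% of records, so exons were re-ordered by strand. The longest spliced Zv9_ model stood for a host. Distances count the bases between a precursor and a site, and spliced distances count only exon bases. The GRCz12tu RefSeq table named 10 of 10 precursors and was used for names and neighbours only. The neighbours of mir219-2 in that table are not reported here. The members, the microRNA families and the comparisons were chosen with earlier results of these data known, and all 8 hosts and 10 precursors are named. Other loci are named if they hold a precursor or are a nearest neighbour. The families were listed by name. Nearest neighbours beyond 10 kb were named after their distances had been seen. Exon numbers and spliced distances to both ends were checked base by base on simulated models whose precursors lay wholly inside an exon. Distances to splice sites, genomic distances and a precursor that crosses a splice site were not part of that check. Python 3.11.15, pandas 2.3.3, numpy 2.4.6 and matplotlib 3.10.9 were used.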

Additional observations from a re-analysis of the deposited data

How the results depend on the processing

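Each of 8 summary values was recomputed under other settings, which gave 50 values, and 46 of them stayed within 1.5 times the reported one. For numbers of precursors this bound was applied to the count, not to the share of precursors. Taking the widest, the shortest or the merged Zv9_ models repeated the reported values. These settings could show almost no change, since only the mir9-3 host has more than 1 model. Its models differ by 3 nt, outside the exon that holds the precursor. The values from these settings are still counted among the 46, so that count says little about stability. With all 11 hosts of microRNA precursors, 20 of 21 precursors lay wholly inside an exon, 19 of 21 lay in last exons, and the median distance to the nearest splice site was 175 nt. The share of precursors that began within 50 nt after an acceptor was then 23.8% (5 of 21), against 40% (4 of 10) in the 8 hosts. As a share this fell past the bound, but it stands among the 46 because the counts, 5 and 4, were compared. The reverse holds for the counts inside an exon and in last exons. They moved as counts, while their shares, 95.2% against 90% and 90.5% against 80%, stayed within the bound. The setting added 11 precursors, all of them in last exons. Among these the later members of a cluster lie farther from the acceptor. Whether this accounts for the longer median distance was not tested. With a window of 25 nt after the acceptor, a setting chosen after seeing the data, 0 precursors began inside it, and with 100 nt the count was again 4. No paired analysis was possible because no value came from a test between samples and each stage had 1 library. The depth of the footprint libraries does not enter these values, and the depth of the reads behind the deposited models was not examined.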

Other observations

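Acceptors 3 nt apart, as in exon 2 of the mir9-3 host, occurred at 7 of the 153 loci with more than 1 Zv9_ model, or 4.58%. Acceptors at most 12 nt apart occurred at 15 of them, or 9.80%. These counts were made after the isoforms of that host had been read, and they describe the deposited models only.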
